A study of Mus musculus with 12 samples.

Results

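A set of 10 genes typical of alveolar macrophages was followed in bulk RNA sequencing of whole mouse lung: Ear1, Ear2, Chil3, Marco, Fabp1, Atp6v0d2, Plet1, Krt79, Itgax and Pparg. They were chosen by name as known alveolar macrophage genes, and they are 10 of the 23127 genes listed for these lungs. The 12 libraries come from C57BL6/J mice, an inbred strain for which the labels give no allele or transgene, and each library is a separate mouse. Of these, 4 were 0-week controls. Another 4 mice had received L-NAME, an inhibitor of nitric oxide synthase, at 0.5 g/L in the drinking water for 2 weeks together with a high-fat diet in which lipid made up 60%, and the remaining 4 had received the same combination for 5 weeks. L-NAME and the diet were given together and the controls were not followed over time, so the effects of the drug, the diet and the time on study cannot be told apart. The sources used here give neither age nor sex. The series concerns pulmonary vascular remodelling in heart failure with preserved ejection fraction and the myeloid cells of the lung.

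Alveolar macrophages live on the air side of the alveoli, where they take up inhaled particles and clear spent surfactant. Granulocyte-macrophage colony-stimulating factor (GM-CSF), made largely by alveolar epithelium, signals through its receptor and STAT5 to induce PPAR-gamma, the nuclear receptor encoded by Pparg, which sets up the lipid-handling programme of these cells. Mouse alveolar macrophages differ from other lung macrophages by high CD11c (Itgax) and Siglec-F, by eosinophil-associated ribonucleases and by the chitinase-like protein Ym1 (Chil3). None of the 10 genes is restricted to this cell: Chil3 is also made by neutrophils and monocytes, Itgax by dendritic cells, Pparg by adipocytes, and Plet1 and Krt79 by epithelia.

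Levels are given as deposited, in CPM, the read count of a gene scaled to a common library total. Judged from the spacing of low values, each library held 26000000 to 34100000 reads in genes. Markers of lung parenchyma were high throughout, with the surfactant protein gene Sftpc at 9794 to 18050 CPM and the endothelial cadherin gene Cdh5 at 712.6 to 1014 CPM over the 12 libraries. The macrophage markers Siglecf, which encodes Siglec-F, and Mrc1, the mannose receptor, were detected in every library, at 2.78 to 17.0 and 37.3 to 95.5 CPM. On principal components of all genes, the libraries farthest from the others were control replicate 2, 2-week replicate 3 and 5-week replicate 3. For the alveolar macrophage genes, control replicate 3 and 2-week replicate 4 went against the rest of their own groups, and the comparisons of each gene are also given without either of them.

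Ear1 and Ear2 are genes of the eosinophil-associated ribonuclease family on the same chromosome, with near-identical start regions. These regions are shown with that of Fabp1 because the ribonuclease pair moved together across the lungs. Fabp1 was a partial exception to the pattern of low libraries described after the sequences. The sequences run from 250 bases before to 50 bases after the RefSeq start, in build GRCm38.p6, and read 5′ to 3′ on the gene's strand. Capitals mark matches, on either strand, to 4 motifs: TTGCNNAA (bound by C/EBP factors), GAGGAA (the core bound by PU.1), AGGTCA (the nuclear receptor half-site that PPAR-gamma and its partner RXR recognise) and TATAAA (the TATA box).
Ear1, chr14:43819590-43819889, minus strand: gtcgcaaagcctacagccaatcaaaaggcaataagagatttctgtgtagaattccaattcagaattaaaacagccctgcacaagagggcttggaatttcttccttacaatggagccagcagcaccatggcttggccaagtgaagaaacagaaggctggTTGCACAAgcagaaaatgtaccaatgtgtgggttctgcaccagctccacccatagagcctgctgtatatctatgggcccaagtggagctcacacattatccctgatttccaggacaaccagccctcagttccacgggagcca
Ear2, chr14:44102404-44102703, plus strand: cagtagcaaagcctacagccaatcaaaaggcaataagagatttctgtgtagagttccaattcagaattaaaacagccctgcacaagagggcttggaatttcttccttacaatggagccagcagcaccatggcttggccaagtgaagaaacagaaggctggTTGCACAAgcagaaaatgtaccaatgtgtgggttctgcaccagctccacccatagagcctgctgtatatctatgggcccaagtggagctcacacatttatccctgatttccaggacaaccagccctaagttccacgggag
Fabp1, chr6:71199629-71199928, plus strand: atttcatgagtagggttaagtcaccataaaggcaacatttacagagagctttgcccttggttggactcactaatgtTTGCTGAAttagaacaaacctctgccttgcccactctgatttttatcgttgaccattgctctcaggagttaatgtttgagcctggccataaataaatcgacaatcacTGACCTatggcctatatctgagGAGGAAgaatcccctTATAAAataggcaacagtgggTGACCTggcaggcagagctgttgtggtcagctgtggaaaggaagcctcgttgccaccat
Over 297 aligned bases the Ear1 and Ear2 windows were identical at 294 and mismatched at 3. Each holds TTGCACAA once, beginning 92 bases before the start in Ear1 and 90 bases before it in Ear2. The Fabp1 window holds TTGCTGAA beginning 174 bases before the start, GAGGAA 45 before it, TATAAA 30 before it, and AGGTCA on the opposite strand beginning 67 and 9 bases before it. Among the 32851 promoters of the RefSeq table, TTGCNNAA occurs in 10.8%, GAGGAA in 28.3%, AGGTCA in 16.3% and TATAAA in 13.6%. Of the 9 genes with a promoter in that table, 4 held TTGCNNAA, 2 held GAGGAA, 3 held AGGTCA and 3 held TATAAA in the first of their listed promoters. Atp6v0d2 has no entry. In the same first promoters the AP-1 motif TGANTCA was found in 2 of the 9 and 7.81% of all promoters, and the paired half-site motif known as DR1 in 0 of the 9 and 0.0396% of all. These are letter matches in a window and were not tested as binding sites.

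The main feature of the data was a split that cut across the treatment groups. For 9 of the 10 genes the 4 lowest of the 12 libraries were 2-week replicates 1, 2 and 3 and control replicate 3, whereas 2-week replicate 4 stood at the level of the other controls and the 5-week lungs. The exception was Fabp1, for which control replicate 2 (2.82 CPM) took the place of 2-week replicate 2 (4.34 CPM) among the 4 lowest. Over all 15562 genes whose mean reached 1 CPM, the same 4 libraries were the lowest for 645, or 4.14%. These 4 libraries were picked from the values of the 10 genes themselves, which share the same lungs. The count of 9 is therefore a description and no test against that share. In bulk RNA, fewer cells of a type and less RNA per cell cannot be told apart, so these levels do not count macrophages. The summed level of the 10 genes was 788, 680.3, 322.4 and 793 CPM in control replicates 1 to 4, then 315, 359, 288 and 795 CPM in 2-week replicates 1 to 4, and 699, 655, 807 and 856 CPM in 5-week replicates 1 to 4. Chil3 made up most of each sum.

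**Figure D1:**
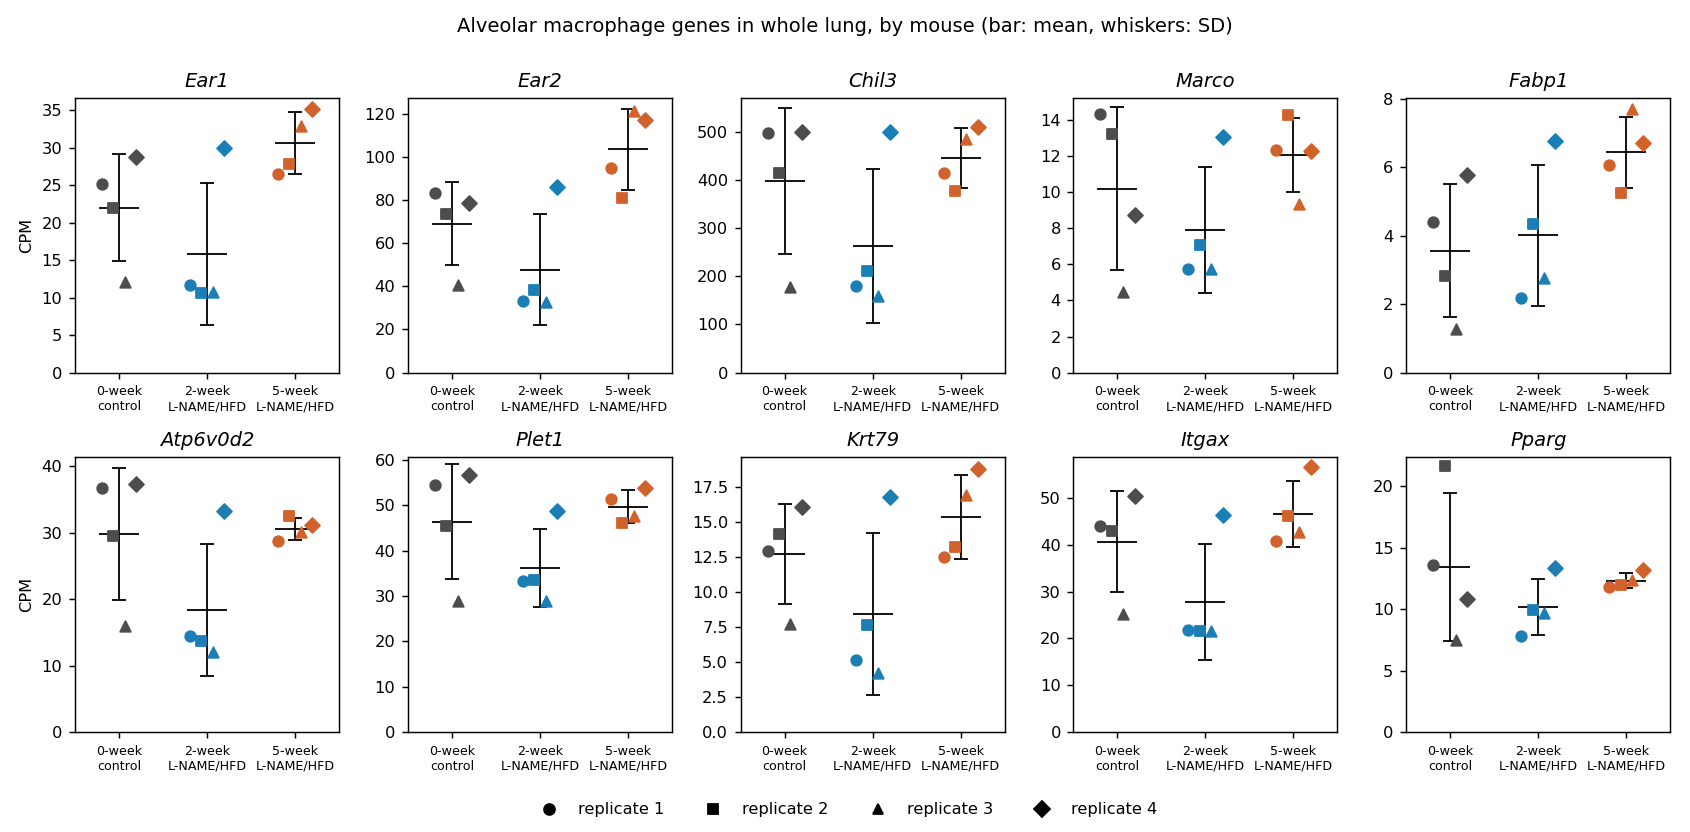
CPM (vertical axes, from 0) of each of the 10 genes in the 12 lungs, by group (0-week control, 2-week and 5-week L-NAME with high-fat diet, 4 mice each). Symbols are replicates, horizontal bars are means and whiskers are SD. In most panels 3 of the 4 blue 2-week points lie low with the fourth at the level of the other groups, and the lowest grey control point is replicate 3.

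Secreted products are given first. Ear2 (ENSMUSG00000072596, chromosome 14, 44340111 to 44340991, plus strand) encodes a secreted ribonuclease. It stood at 83.5, 73.8, 40.7 and 78.8 CPM in controls, at 33.5, 38.4, 32.6 and 86.2 CPM after 2 weeks, and at 95.0, 81.0, 121 and 117 CPM after 5 weeks. The 5-week lungs lay above all 2-week lungs but replicate 4, which exceeded 5-week replicate 2, and they overlapped the controls at the top control. Group means were 69.2 ± 19.4, 47.7 ± 25.8 and 103.6 ± 19.0 CPM at 0, 2 and 5 weeks (SD, n = 4 each). The log2 difference of 5 against 2 weeks, 1.21 ± 0.29 (SE), was the largest of the 10 genes in any comparison, and it did not pass (limma adjusted p = 0.288). Against the controls the difference was -0.60 at 2 weeks and 0.61 at 5 weeks (limma adjusted p = 0.55 and 0.586).

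Ear1 (ENSMUSG00000072601, chromosome 14, 44056222 to 44112974, minus strand), a second ribonuclease of the family, stood at 25.1, 21.9, 12.1 and 28.7 CPM in controls. After 2 weeks it stood at 11.7, 10.7, 10.75 and 29.95 CPM, and after 5 weeks at 26.4, 27.8, 32.9 and 35.2 CPM. No library lay between 12.1 and 21.9 CPM. The difference of 5 against 2 weeks was 1.04 ± 0.30 (SE) and did not pass (limma adjusted p = 0.288). Of the 50-base stretches of the Ear1 transcripts, 57.4% occur also in another gene, and of all its stretches 23.8% occur in Ear2 and 41.4% in the pseudogene Ear-ps9, and for Ear2 the shared part is 41.5%. The sources used here do not say how such reads were counted, so the individual levels of Ear1 and Ear2 are uncertain. The Ear2 level was 2.75 to 3.69 times the Ear1 level in every library, a range in which the groups overlapped.

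Chil3 (ENSMUSG00000040809, chromosome 3, 106054870 to 106074880, minus strand) encodes Ym1, a secreted chitinase-like protein without chitinase activity. It stood at 499, 415, 178.5 and 499.6 CPM in controls, at 179, 212, 159.7 and 501 CPM after 2 weeks, and at 414, 377, 486 and 511 CPM after 5 weeks. Control replicate 3 lay within the range of 2-week replicates 1 to 3, and 2-week replicate 4 lay within the range of the 5-week lungs. The 5-week and 2-week means were 447 ± 62.2 and 263 ± 160 CPM (SD, n = 4 each), a log2 difference of 0.91 ± 0.36 (SE) that did not pass (limma adjusted p = 0.372). At 5 weeks against 0 weeks the difference was 0.27, and without control replicate 3 it was -0.081. Part of the Chil3 transcript, 26.9% of its 50-base stretches, is shared, mainly with Chil4, which was at 0.498 CPM or below in all 12 libraries.

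Surface receptors showed the same split. Itgax (ENSMUSG00000030789, chromosome 7, 127728719 to 127749829, plus strand) encodes CD11c, the integrin alpha chain of complement receptor 4. It stood at 43.9, 43.0, 25.2 and 50.5 CPM in controls, at 21.8, 21.6, 21.6 and 46.3 CPM after 2 weeks, and at 40.9, 46.1, 42.8 and 56.6 CPM after 5 weeks. The 3 low 2-week lungs lay between 21.58 and 21.77 CPM, and the fourth lay among the 5-week lungs. The difference was -0.57 ± 0.25 (SE) at 2 against 0 weeks and 0.79 ± 0.25 (SE) at 5 against 2 weeks, and neither passed (limma adjusted p = 0.511 and 0.29).

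Marco (ENSMUSG00000026390, chromosome 1, 120402267 to 120432753, minus strand) encodes a class A scavenger receptor that binds bacteria and unopsonised particles. It stood at 14.3, 13.3, 4.46 and 8.77 CPM in controls, at 5.76, 7.11, 5.76 and 13.1 CPM after 2 weeks, and at 12.3, 14.3, 9.34 and 12.3 CPM after 5 weeks. The gap between low and high libraries was narrow, from 7.11 to 8.77 CPM, and control replicate 4 lay just above it. The differences were -0.29, 0.32 and 0.61 for 2 against 0, 5 against 0 and 5 against 2 weeks (SE 0.31 each), and none passed (limma adjusted p = 0.759, 0.766 and 0.498).

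Plet1 (ENSMUSG00000032068, chromosome 9, 50405825 to 50416782, plus strand) encodes a membrane-anchored surface glycoprotein. It stood at 54.5, 45.5, 28.9 and 56.7 CPM in controls, at 33.4, 33.5, 28.9 and 48.7 CPM after 2 weeks, and at 51.4, 46.0, 47.6 and 53.9 CPM after 5 weeks. The same 4 libraries were lowest, over a smaller span than for the other genes, and its difference of 5 against 2 weeks was 0.47 ± 0.19 (SE; limma adjusted p = 0.391). At 5 against 0 weeks it was 0.14, and -0.066 without control replicate 3.

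Genes of lipid handling and of the lysosome varied more among themselves. Pparg (ENSMUSG00000000440, chromosome 6, 115337912 to 115467360, plus strand) stood at 13.6, 21.6, 7.52 and 10.8 CPM in controls, at 7.85, 9.94, 9.66 and 13.3 CPM after 2 weeks, and at 11.8, 11.9, 12.4 and 13.2 CPM after 5 weeks. The 5-week lungs were tight, at 12.3 ± 0.621 CPM, and the controls were the most scattered, at 13.4 ± 6.03 CPM (SD, n = 4 each). Its differences were the smallest of the 10 genes at 5 against 0 weeks (-0.02 ± 0.23, SE) and 5 against 2 weeks (0.27 ± 0.23, SE), and neither passed (limma adjusted p = 0.98 and 0.732). The highest Pparg value, in control replicate 2, came from the lung in which the adipocyte markers summed to 1742 CPM, against 93.6 to 165 CPM in the other controls, with the fat hormone gene Adipoq at 157 CPM against 1.93 to 7.24 CPM. Without that library the 5 against 0 week difference of Pparg was 0.23. The part of adipose RNA in the Pparg values was not tested.

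Fabp1 (ENSMUSG00000054422, chromosome 6, 71176811 to 71182007, plus strand) encodes a fatty acid-binding protein best known from liver and gut. It stood at 4.39, 2.82, 1.28 and 5.77 CPM in controls, at 2.18, 4.34, 2.75 and 6.77 CPM after 2 weeks, and at 6.07, 5.24, 7.71 and 6.71 CPM after 5 weeks. Unlike the other 9 genes it had a higher mean after 2 weeks than in controls, 4.01 ± 2.06 against 3.57 ± 1.94 CPM (SD, n = 4 each), with a log2 difference of 0.16 ± 0.32 (SE; limma adjusted p = 0.879). That sign rested on control replicate 3, without which the difference was -0.14, and on 2-week replicate 4, without which it was -0.08. After 5 weeks it averaged 6.43 ± 1.04 CPM, the largest difference from controls among the 10 genes (0.80 ± 0.32, SE), which did not pass (limma adjusted p = 0.552). Without control replicate 3 that difference was 0.51.

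Atp6v0d2 (ENSMUSG00000028238, chromosome 4, 19876841 to 19922605, minus strand) encodes the d2 subunit of the vacuolar proton pump, an isoform of macrophages and osteoclasts that takes part in lysosomal acidification. It stood at 36.7, 29.4, 16.0 and 37.3 CPM in controls, at 14.4, 13.7, 12.1 and 33.3 CPM after 2 weeks, and at 28.7, 32.5, 30.0 and 31.1 CPM after 5 weeks. The low and the high libraries were separated by a gap from 16.0 to 28.7 CPM. Its difference of -0.72 ± 0.29 (SE) at 2 against 0 weeks was the most negative of the 10 genes with all libraries, and it did not pass (limma adjusted p = 0.487). Without 2-week replicate 4 it was -1.032 and that of Krt79 -1.034. At 5 against 0 weeks the difference was 0.10, and -0.16 without control replicate 3.

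Krt79 (ENSMUSG00000061397, chromosome 15, 101837767 to 101848759, minus strand) encodes a type II keratin, an intermediate filament protein otherwise found in skin appendages. It stood at 12.98, 14.1, 7.74 and 16.1 CPM in controls, at 5.14, 7.67, 4.19 and 16.8 CPM after 2 weeks, and at 12.5, 13.3, 17.0 and 18.8 CPM after 5 weeks. The 2-week mean was 8.46 ± 5.77 CPM and the control mean 12.7 ± 3.58 CPM (SD, n = 4 each). Among other keratins, Krt5, Krt15 and Krt17 were at 1.62 CPM or below in all 12 libraries. Krt7 and Krt19 were abundant, at 270 to 432 and 141 to 233 CPM. The part of epithelium in the Krt79 values was not tested. The 5 against 2 week difference of Krt79 was 0.95 ± 0.32 (SE; limma adjusted p = 0.331).

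**Figure D2:**
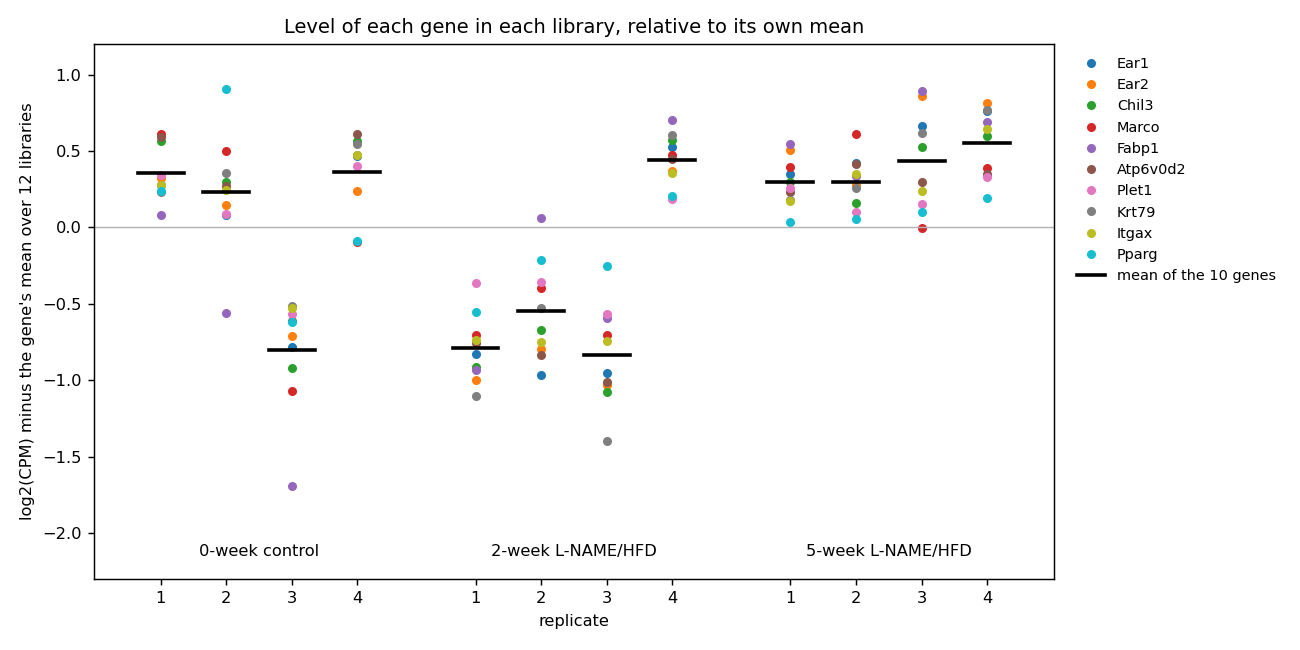
Log2 CPM of each gene minus its own mean over the 12 libraries (vertical axis), by library, with replicates of each group along the horizontal axis. Coloured points are the 10 genes and black bars their mean. The bars of control replicate 3 (-0.80) and of 2-week replicates 1, 2 and 3 (-0.79, -0.55 and -0.83) lie below the line, and those of the other 8 libraries lie between 0.23 and 0.55.

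After the mean shift of the 10 genes was subtracted in each library, the genes differed in how much variation was left. The same shift was subtracted from every gene. A gene with a wider or narrower split than the mean therefore keeps part of the split, reversed where narrower. The SD of the remainder over the 12 libraries was smallest for Itgax (0.14 on the log2 scale) and Chil3 (0.15) and largest for Fabp1 (0.46) and Pparg (0.39). Fabp1 lay below the shared level in control replicates 2 and 3 (-0.79 and -0.89) and above it in 2-week replicate 2 (0.61). Pparg lay above it in control replicate 2 (0.68) and in the 4 low libraries (0.18 to 0.58), and below it in all 4 of the 5-week lungs (-0.25 to -0.36). Plet1 likewise lay above it in the 4 low libraries (0.19 to 0.43) and below it in the 5-week lungs (-0.037 to -0.28). Both had a narrow split, so these signs are not a separate 5-week trait of either gene. Ear2 was above the shared level in 3 of the 4 lungs after 5 weeks, by up to 0.43, and below it in all 4 after 2 weeks (-0.076 to -0.25). Marco was furthest below it in control replicate 4 (-0.46) and 5-week replicate 3 (-0.44). Spread between mice also differed by group: the SD of Atp6v0d2 was 9.92 CPM at 0 weeks, 9.99 CPM at 2 weeks and 1.62 CPM at 5 weeks, and that of Plet1 was 12.6, 8.64 and 3.58 CPM (n = 4 each). For all 10 genes the 5-week SD was the smallest of the 3 groups. As a percentage of the mean it was 26.6% to 54.5% at 0 weeks, 22.4% to 68.3% at 2 weeks and 5.04% to 19.6% at 5 weeks over the 10 genes.

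Per kilobase of exon, which allows levels of different genes to be compared, the order in control lungs was Chil3, Ear2, Ear1, Plet1, Atp6v0d2, Itgax, Fabp1, Marco, Pparg and Krt79. Chil3 averaged 244 ± 92.9 CPM per kb and Krt79 averaged 2.68 ± 0.753 CPM per kb (SD, n = 4). Ear2 lay at 56.6 to 116 CPM per kb in controls, above every control value of Ear1, at 16.6 to 39.3, and Plet1, at 14.9 to 29.1, lay above every value of Atp6v0d2, at 5.88 to 13.7. The ranges of the other neighbours in the order overlapped across control lungs. Compared within each control lung, the order differed only between Fabp1 and Marco and between Marco and Pparg. After 5 weeks Fabp1, at 11.6 ± 1.89 CPM per kb, stood above Atp6v0d2, at 11.3 ± 0.597, and Itgax, at 9.71 ± 1.46 (SD, n = 4), again with overlapping lungs.

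At 2 against 0 weeks none of the 10 genes passed in limma, where 0% of all genes passed. At an unadjusted p under 0.05 there were 2 of the 10, Atp6v0d2 and Itgax, both lower after 2 weeks, against 9.24% of all genes in either direction and 3.52% lower. The median log2 difference of the 10 was -0.55, with 9 below 0, and that of all genes was 0.02, with 44.9% below 0. Exact permutation tests of 4 against 4 lungs, whose smallest possible two-sided p is 0.0286, gave p = 0.114 for Atp6v0d2 and for Itgax and 0.2 to 0.771 for the others. Leaving out control replicate 3 or 2-week replicate 4 moved these differences. Without control replicate 3 they were -0.78 for Ear1, -0.83 for Ear2, -0.996 for Chil3, -0.60 for Marco, -0.98 for Atp6v0d2, -0.54 for Plet1, -0.87 for Krt79, -0.78 for Itgax, -0.52 for Pparg and -0.14 for Fabp1. Without 2-week replicate 4 they were -0.87 for Ear1, -0.92 for Ear2, -1.01 for Chil3, -0.53 for Marco, -0.48 for Plet1, -0.83 for Itgax, -0.42 for Pparg and -0.081 for Fabp1, beside those of Atp6v0d2 and Krt79 above. None of the 10 passed without either. Other libraries reduced them: Marco was -0.10 without control replicate 1, Pparg -0.046 without control replicate 2 and Krt79 -0.44 without 2-week replicate 3. The 2-week and control lungs overlapped for all 10 genes, whereas they did not overlap for 5.32% of all genes.

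At 5 against 0 weeks 0 of the 10 passed, as did 0% of all genes. Fabp1, higher after 5 weeks, was the 1 gene of the 10 with an unadjusted p under 0.05, against 8.63% of all genes in either direction and 5.84% higher. The median difference of the 10 was 0.27, with 9 above 0, and that of all genes was 0.02, with 55% above 0. The smallest exact permutation p, 0.0571, was reached by Ear2 and Fabp1, and the largest was 0.914, for Atp6v0d2 and Pparg. Without control replicate 3 the differences were 0.26 for Ear1, 0.38 for Ear2, -0.081 for Chil3, -0.16 for Atp6v0d2, -0.066 for Plet1, 0.0061 for Marco, 0.076 for Krt79, 0.017 for Itgax and -0.24 for Pparg, and none passed. The groups overlapped for all 10, and they did not overlap for 5.01% of all genes.

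At 5 against 2 weeks 0 of the 10 passed, again with 0% of all genes. Here 7 of the 10 had an unadjusted p under 0.05, all of them higher after 5 weeks, against 10.9% of all genes in either direction and 6.18% higher: Ear1, Ear2, Chil3, Atp6v0d2, Plet1, Krt79 and Itgax. The median difference was 0.81, with all 10 above 0, and that of all genes was 0.001, with 50.2% above 0. Exact permutation p lay between 0.0571, for Ear2, and 0.143. The groups overlapped for all 10 through 2-week replicate 4, and they did not overlap for 4.94% of all genes. Without that library 6 of the 10 passed (Ear1, Ear2, Chil3, Atp6v0d2, Krt79 and Itgax, all higher after 5 weeks; limma adjusted p between 0.015 and 0.0412), where 2.48% of all genes passed and 1.84% passed as higher. The differences of these 6 were then 1.38, 1.53, 1.28, 1.13, 1.31 and 1.06, in the order named. Those of the other 4 were 0.85 for Marco, 0.89 for Fabp1, 0.62 for Plet1 and 0.40 for Pparg. Because 2-week replicate 4 was singled out on the values of these same genes, the fit without it is no separate evidence of a difference. When libraries were weighted by their fit to their groups, Plet1 passed as well, making 7 of the 10 (limma adjusted p between 0.0173 and 0.0365), where 5.66% of all genes passed and 3.72% passed as higher. The weights also lowered 2-week replicate 4, to 0.581 against 1.035 to 1.9 for the other 2-week libraries. The weighted fit is therefore no separate evidence either. The comparisons share the same 2-week, 5-week and control lungs, so their differences are not independent of each other.

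**Figure D3:**
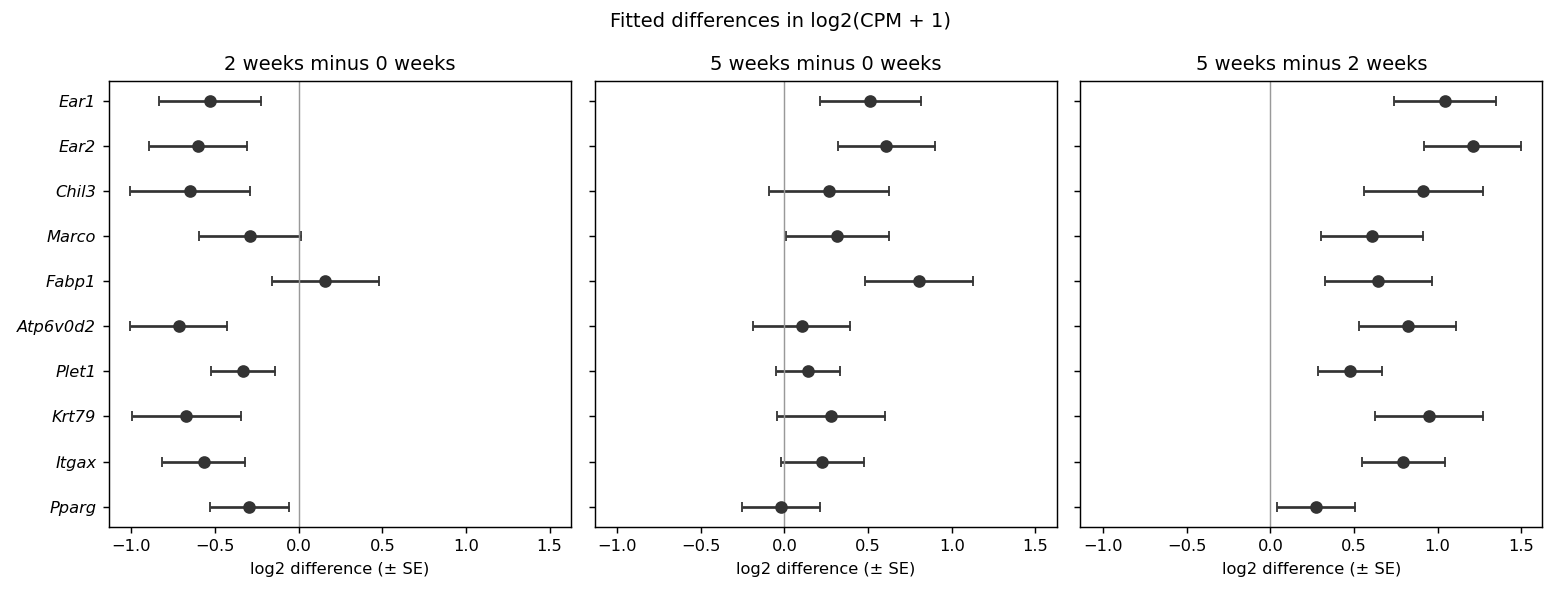
Fitted differences in log2(CPM + 1) of the 10 genes (points, horizontal axes) with their SE (whiskers), for 2 minus 0 weeks, 5 minus 0 weeks and 5 minus 2 weeks. Points at 2 weeks lie left of 0 except Fabp1 (0.16), points at 5 minus 2 weeks all lie right of 0, and none of the 30 differences passed the adjusted threshold.

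Of 24 other genes known from alveolar macrophages, 21 were abundant enough to test, and none passed in any comparison. At an unadjusted p under 0.05, 11 were higher and 0 lower at 5 against 2 weeks, with a median difference of 0.53, and 3 were lower and 0 higher at 2 against 0 weeks, with a median of -0.35. Over all genes 6.18% were higher at 5 against 2 weeks and 3.52% lower at 2 against 0 weeks. For 12 of the 21, or 57.1%, the lowest 4 libraries were the same as for the 9 genes above. Siglecf stood at 11.6, 10.9, 4.57 and 12.9 CPM in controls, at 3.43, 3.59, 2.78 and 14.6 CPM after 2 weeks, and at 11.7, 10.2, 13.7 and 17.0 CPM after 5 weeks (5 against 2 weeks 1.24 ± 0.40, SE; limma adjusted p = 0.305). Il1rn, which encodes the secreted antagonist of the IL-1 receptor, averaged 7.58 ± 1.82, 5.58 ± 2.82 and 13.1 ± 2.61 CPM at 0, 2 and 5 weeks (SD, n = 4 each; 5 against 2 weeks 1.17, limma adjusted p = 0.276). Not all followed: Bhlhe41, a repressor that controls alveolar macrophage self-renewal, averaged 59.4 ± 14.7, 63.9 ± 7.60 and 63.5 ± 6.93 CPM at 0, 2 and 5 weeks.

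In the GM-CSF, TGF-beta and transcription factor list, none of 28 genes passed. At 2 against 0 weeks 7 were lower and 2 higher at an unadjusted p under 0.05, and at 5 against 2 weeks 8 were higher and 0 lower. Over all genes 3.52% were lower in the first comparison and 6.18% higher in the second. The receptor chain gene Csf2rb, singled out after its values were seen, stood at 39.1, 41.0, 20.0 and 40.9 CPM in controls, at 14.1, 18.9, 16.9 and 38.0 CPM after 2 weeks and at 35.4, 36.2, 35.4 and 52.8 CPM after 5 weeks. Its 4 lowest lungs were the same as those of Itgax, with control replicate 3 low and 2-week replicate 4 high. The ligand gene Csf2 was low, at 0.604 to 1.93 CPM over the 12 libraries. Spi1, which encodes PU.1, averaged 43.1 ± 13.2, 33.7 ± 11.8 and 60.6 ± 12.5 CPM at 0, 2 and 5 weeks (5 against 2 weeks 0.86, limma adjusted p = 0.288). Itgb6, the epithelial integrin chain that activates latent TGF-beta, was higher at 2 weeks, with 32.9 ± 2.57 CPM against 20.6 ± 2.69 CPM in controls (SD, n = 4 each; 0.66 ± 0.11, SE; limma adjusted p = 0.0835), and its 2-week and control lungs did not overlap. These groups did not overlap for 5.32% of all genes.

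Scavenger, opsonin and phagocytic receptors had a median difference of -0.37 at 2 against 0 weeks and 0.51 at 5 against 2 weeks. Of 20, 8 were lower and 0 higher at 2 against 0 weeks and 12 were higher and 0 lower at 5 against 2 weeks at an unadjusted p under 0.05, and none passed. The shares over all genes were 3.52% lower and 6.18% higher in these comparisons. In this list 10 genes, or 50%, had the same 4 lowest libraries. Fcgr2b, the inhibitory Fc receptor, averaged 16.9 ± 2.90 CPM after 2 weeks against 28.0 ± 6.78 CPM in controls (SD, n = 4 each; -0.68 ± 0.17, SE; limma adjusted p = 0.242). Mertk, a receptor for apoptotic cells, averaged 48.3 ± 2.26 CPM after 2 weeks against 63.5 ± 2.59 CPM in controls (-0.39 ± 0.10, SE; limma adjusted p = 0.293), with no split inside the 2-week group.

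Among 20 PPAR-gamma and lipid handling genes, 4 were lower and 0 higher at 2 against 0 weeks and 3 were higher at 5 against 2 weeks at an unadjusted p under 0.05. The shares over all genes were 3.52% lower and 6.18% higher in these comparisons. Angptl4, an inhibitor of lipoprotein lipase and a PPAR target, averaged 24.6 ± 4.73 CPM after 2 weeks against 58.8 ± 18.9 CPM in controls (-1.18 ± 0.20, SE; limma adjusted p = 0.0835), and 2-week replicate 4 was low with the rest of its group, at 22.1 CPM. Abca1, a cholesterol exporter, averaged 95.8 ± 17.9 CPM after 5 weeks against 132 ± 15.6 CPM in controls (-0.48 ± 0.13, SE; limma adjusted p = 0.464). Only 3 of the 20, or 15%, had the 4 lowest libraries of the alveolar macrophage genes.

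The other 17 subunit and accessory genes of the vacuolar proton pump did not follow Atp6v0d2: 0 of them had its 4 lowest libraries, and their medians were 0.09, 0.10 and 0.02 at 2 against 0, 5 against 0 and 5 against 2 weeks. Atp6v0d1, the widely expressed counterpart of Atp6v0d2, stood at 80.6 to 100.5 CPM in all 12 lungs. Atp6v0a1 averaged 129.5 ± 4.03 CPM after 2 weeks against 108 ± 6.52 CPM in controls (0.26 ± 0.07, SE; limma adjusted p = 0.304), and Tcirg1, which encodes the a3 subunit, averaged 55.5 ± 2.72 against 47.5 ± 2.44 CPM (0.22 ± 0.07, SE; limma adjusted p = 0.402). Of the 18 testable paralogs of the 10 genes, 3 had the same 4 lowest libraries and 5 were higher at 5 against 2 weeks at an unadjusted p under 0.05, and none passed. The shares over all genes were 4.14% and 6.18%. The leukocyte integrin genes Itgal and Itgam, relatives of Itgax, averaged 68.4 ± 4.64 and 35.7 ± 5.68 CPM after 5 weeks against 35.6 ± 16.4 and 19.0 ± 6.81 CPM after 2 weeks (SD, n = 4 each; limma adjusted p = 0.288 for both). Of 11 alternative activation genes, 3 were lower at 2 against 0 weeks at an unadjusted p under 0.05, against 3.52% of all genes, and none of the 11 passed. The 3 lower genes included the chemokine gene Ccl17, with 3.67 ± 0.784 CPM after 2 weeks against 5.74 ± 0.930 CPM in controls, and the haemoglobin scavenger receptor gene Cd163, with 11.3 ± 0.771 against 22.03 ± 10.3 CPM (SD, n = 4 each; limma adjusted p = 0.307 and 0.377).

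**Figure D4:**
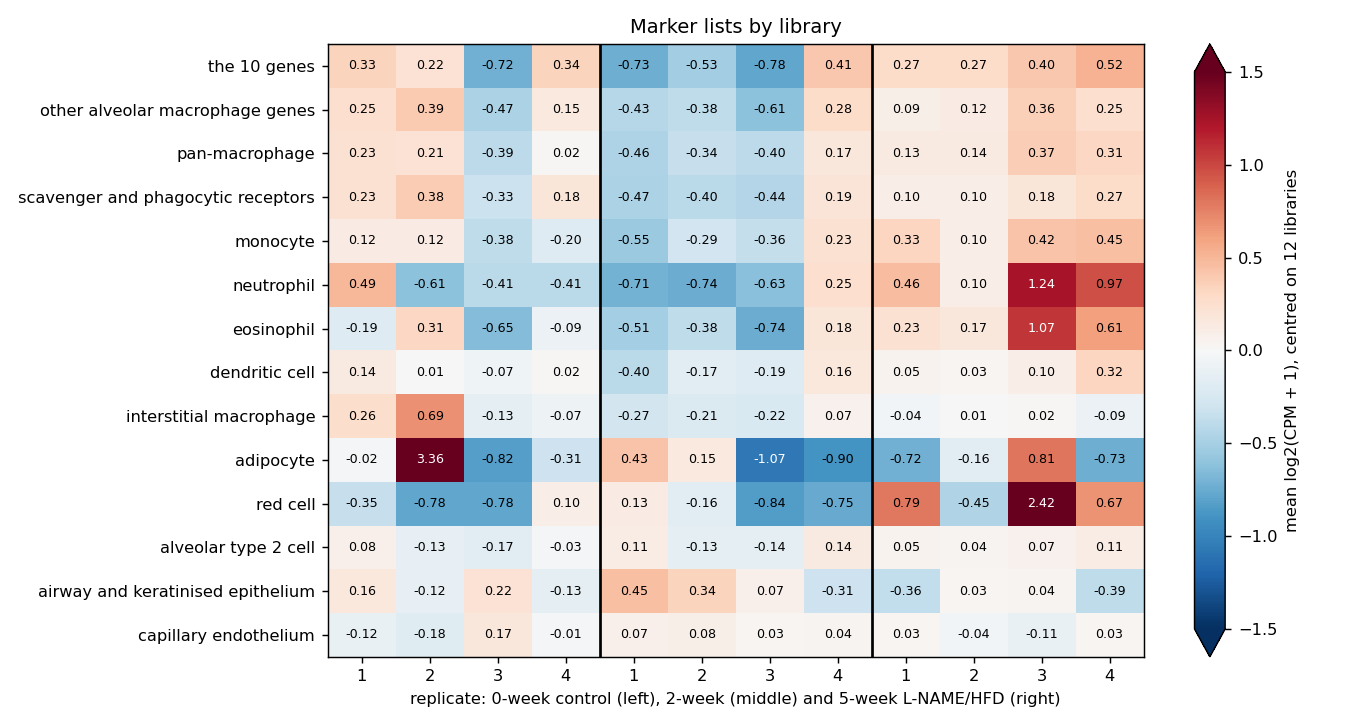
Mean log2(CPM + 1) of the 10 genes and of other marker lists, centred on the 12 libraries (colour and printed value; red above and blue below the list's mean over libraries), with libraries in columns by group. Rows for other alveolar macrophage genes, pan-macrophage markers, scavenger receptors and dendritic cells are blue in the same 4 columns as the 10 genes. The monocyte, eosinophil, interstitial macrophage and neutrophil rows are blue in these columns and also elsewhere. The adipocyte row stands out in control replicate 2 (3.36).

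Markers of other cells moved with the alveolar macrophage genes to different degrees. Pan-macrophage markers had the same 4 lowest libraries for 6 of 10 genes, monocyte markers for 4 of 10, dendritic cell markers for 2 of 11, neutrophil markers for 1 of 9, eosinophil markers for 1 of 4 and interstitial macrophage markers for 1 of 12. The count was 0 for markers of alveolar type 2 cells, airway epithelium, capillary endothelium, adipocytes, red cells and cycling cells. Over all genes tested the share was 4.14%, so counts of 0 or 1 in lists this short do not set these lists apart. In mean log2(CPM + 1), the monocyte, dendritic cell, eosinophil and interstitial macrophage lists were also lowest in the same 4 libraries. For the 4 tested eosinophil genes this rested on Siglecf, which is also listed with the alveolar macrophage genes. None of the others had these lowest libraries, and Alox15 stood at 3.09 CPM in 2-week replicate 2 and at 0.787 CPM in control replicate 1. Neutrophil markers had medians of 0.97 at 5 against 0 weeks and 1.52 at 5 against 2 weeks, with 8 of 9 tested genes higher in the second at an unadjusted p under 0.05, and their summed level was 79.2 to 219 CPM in controls, 67.5 to 170.3 CPM after 2 weeks and 142.8 to 393 CPM after 5 weeks. The neutrophil-defining gene Ly6g was at 0.557 CPM or below throughout. Monocyte markers without Chil3 had medians of -0.14, 0.56 and 0.66 at 2 against 0, 5 against 0 and 5 against 2 weeks. Interstitial macrophage markers had medians of -0.40, -0.27 and 0.14. Eosinophils also carry Siglec-F and ribonucleases of the Ear family. Their 4 tested markers had medians of -0.079, 0.73 and 1.12 at 2 against 0, 5 against 0 and 5 against 2 weeks, and in the last 3 of the 4, Siglecf among them, were higher at an unadjusted p under 0.05 and none passed. Among these markers the chemokine receptor gene Ccr3 reached 5.15 CPM and the lipoxygenase gene Alox15 9.56 CPM, both in 5-week replicate 3, and the granule protein gene Prg2 was at 0.343 CPM or below in all 12 libraries. Red cell markers were all higher after 5 weeks than in controls at an unadjusted p under 0.05, led by 5-week replicate 3, with Hbb-bs at 7190 CPM there. At that p, 5.84% of all genes were higher at 5 against 0 weeks and 6.18% at 5 against 2 weeks. The summed level of the red cell markers in 5-week replicate 2, 1512 CPM, lay within the control range of 1237 to 2607 CPM. The part of eosinophils in Ear1 and Ear2, and of monocytes, neutrophils and dendritic cells in Chil3 and Itgax, was not tested.

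Across the 12 libraries each of the 10 genes was compared with the mean of the other 9, each standardised. Pearson's r was highest for Chil3 (0.99), Ear1 (0.96) and Itgax (0.96) and lowest for Fabp1 (0.76) and Pparg (0.68). Because the libraries form a low and a high cluster, these values mostly describe the 4 low libraries: within the other 8, r was 0.70 for Chil3 and 0.76 for Krt79, but -0.43 for Marco and -0.58 for Pparg. Outside the 10, the 8 genes most like their mean over the 12 libraries were Tlr2, C5ar1, Mpeg1, Stk24, Pik3ap1, Siglecf, Laptm5 and Cybb, with r from 0.97 to 0.99. Within the other 8 libraries Siglecf (0.95), Mpeg1 (0.89) and Tlr2 (0.87) stayed closest, while Stk24 (0.45) and Cybb (0.50) did not. Mpeg1, which encodes the pore-forming protein perforin-2 of macrophages, stood at 239, 205, 108 and 209.7 CPM in controls, at 101.5, 114, 120.2 and 228 CPM after 2 weeks, and at 212, 197, 223 and 260.3 CPM after 5 weeks. Genes are not independent replicates, and all these values share the same 12 libraries.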

How the data were processed

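RNA from 12 whole lungs, flash frozen after sacrifice, was sequenced with Illumina libraries, per the labels' protocols. The authors deposited CPM per gene, which carry an offset of 0.0001. Per the submitters' processing notes, TopHat2, Partek and mm10 were used, and the sources used here do not state versions, annotation, strandedness or filters. Only 501 of 23073 identifiers matched to GENCODE M21 (GRCm38) had the same start, so gene positions are printed as deposited, in a build that the table does not name, and promoter positions in GRCm38.p6 from RefSeq. Between 87.2% and 87.9% of low values lay within 0.1 of a whole read step, so no count model was used and no interval for counting error is given.

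Values were analysed as log2(CPM + 1), which understates changes of low genes, for the 15562 genes averaging 1 CPM or more, all 10 genes among them. All 12 libraries entered a limma fit (limma 3.58.1, R 4.3.3) with group means and a variance trend on expression, tested two-sided with Benjamini-Hochberg adjustment over all genes and a threshold of 0.05. Exact permutation tests used the 70 splits of 4 against 4, and adjusted over all genes their p lay between 0.565 and 0.98. On simulated data for 5 against 0 weeks with 15562 genes, limma recovered 52.4% of genes changed 1.5-fold, 87.2% changed 2-fold and 98% changed 4-fold, with 45 false calls in 5 runs. The changed genes were drawn at random from all genes, and each gene varied independently. These shares therefore do not give the chance of detecting a change in the 10 genes, which share a split between libraries. Replicates were numbered within groups only as names. The 10 genes, the gene lists and the tests were chosen with earlier results of these data known. From each of 7 pathway lists the 2 genes with the smallest p are named where none passed, and outside the 10 genes the 8 most correlated with their mean. Genes outside this rule (Csf2rb, Csf2, Bhlhe41, Atp6v0d1 and the cell markers given with values) were named after their values were seen. The 10 genes were left out of the other lists, which share some genes with each other, such as Siglecf. Alternatives were pseudocounts of 0.1 and 5, a filter of 10 CPM or none, quantile or median-of-ratios scaling, weighted libraries, robust moderation, fits of the groups compared alone, leaving out each library, and leaving out the 3 libraries farthest out on principal components. Tables were made with pandas 2.3.3, numpy 2.4.6 and scipy 1.17.1 in Python 3.11.15, with Biopython 1.88 and matplotlib 3.10.9 for shared 50-base stretches, motifs and plots. The single-cell part of the series was not analysed here.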

Additional observations from a re-analysis of the deposited data

Results flagged for a closer look

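In 4 of the 30 combinations of gene and group tested, 2-week replicate 4 lay far from the other libraries of its group, by Dixon's test at the 95% level. The test used log2(CPM + 1), and the set of genes flagged can differ on the CPM scale printed here. Ear1 was at 29.95 CPM there, against 10.7 to 11.7 CPM in the other 2-week lungs. Ear2 was at 86.2 CPM, against 32.6 to 38.4 CPM. Atp6v0d2 was at 33.3 CPM, against 12.1 to 14.4 CPM, and Itgax was at 46.3 CPM, against 21.6 to 21.8 CPM. Chance flags about 1 in 20 such groups, and the 4 genes come from the same mouse. Control replicate 3, although the lowest control for all 10 genes, was not flagged in any.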

How the results depend on the processing

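Over 657 recomputed differences of the 10 genes in the 3 comparisons, 636 kept their direction and their side of the threshold. At 5 against 2 weeks, library weights gave 881 genes past the threshold and 7 of the 10 genes. Leaving out each library in turn gave 0 to 386 genes and 0 to 6 of the 10 genes there, the highest counts coming without 2-week replicate 4. At 2 against 0 weeks library weights gave 18 genes, leaving out each library gave 0 to 24 (1 without control replicate 1 and 24 without 5-week replicate 3), and none of the 10 genes passed in any alternative. At 5 against 0 weeks leaving out each library gave 0 to 1 genes and none of the 10. Signs changed in 8 recomputed differences: Fabp1 at 2 against 0 weeks was -0.14 without control replicate 3 and -0.08 without 2-week replicate 4. At 5 against 0 weeks without control replicate 3, Chil3 was -0.081, Atp6v0d2 -0.16 and Plet1 -0.066. Pparg at 5 against 0 weeks was 0.02 without control replicate 1, 0.23 without control replicate 2, and it was 0.22 when the 3 libraries farthest out on principal components were left out. The ranges over the left-out libraries were -0.14 to 0.39 for Fabp1 at 2 against 0 weeks, and at 5 against 0 weeks -0.081 to 0.41 for Chil3, -0.16 to 0.23 for Atp6v0d2, -0.066 to 0.25 for Plet1 and -0.24 to 0.23 for Pparg. The cause of these changes beyond the loss of the named library was not tested. Median-of-ratios scaling moved the split at an unadjusted p under 0.05 to 674 higher and 747 lower genes at 2 against 0 weeks, against 890 and 548 on the deposited scale, and to 652 and 628 at 5 against 0 weeks, against 909 and 434. A filter of 10 CPM leaves out Fabp1, so it has no value there. No paired analysis was possible because the labels carry mouse numbers and no replicate numbers shared between groups. With 4 mice a group, the limit on small changes is the spread between mice, above all in the controls and the 2-week group.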

Other observations

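Ratios between the 10 genes, which cancel a common change in their level within a lung, were examined after the values were seen, in 30 exact permutation tests. The Fabp1 level relative to Chil3 was 0.00880, 0.00680, 0.00720 and 0.0116 in controls, 0.0122, 0.0205, 0.0172 and 0.0135 after 2 weeks and 0.0147, 0.0139, 0.0159 and 0.0131 after 5 weeks. All 8 treated lungs lay above all 4 controls, with log2 differences of 0.89 at 2 weeks and 0.77 at 5 weeks (exact permutation p = 0.0286 each, the smallest that 4 against 4 allows, and 0.286 adjusted over the 30 tests). The pattern depended on the gene beneath: of 9 such ratios with Fabp1 on top, only the one with Chil3 placed all treated lungs above all controls. The Ear2 level relative to Chil3 was 0.158 to 0.228 in controls, 0.172 to 0.204 after 2 weeks and 0.215 to 0.2498 after 5 weeks. The log2 difference of 5 against 2 weeks was 0.31 (exact permutation p = 0.0286, adjusted 0.286).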
